A study of Mus musculus with 4 samples.

Results

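The genes of potassium, transient receptor potential (TRP), calcium and sodium channels were compared between lung endothelial cells that had and had not activated the alpha smooth muscle actin locus. Members were taken by symbol, as the rows of the deposited gene table that begin with Kcn (potassium channels), Trpc, Trpm or Trpv and a digit (TRP channels), Cacn (calcium channels) or Scn and a digit (sodium channels). This gave 138 of 17915 genes, which fall into 10 classes of pore-forming and accessory subunits. All mice carried the alleles Cdh5-CreER;aSMA-LSL-Dre;NR1, were given 5 doses of tamoxifen and were used at 6 weeks of transverse aortic constriction (TAC), a narrowing of the aorta. Endothelial cells expressing ZsGreen carried the Cdh5-driven, tamoxifen-induced label alone, and those expressing tdTomato had also passed through alpha smooth muscle actin activation, even if brief, so that both groups shared every allele, the drug and the operation. Bulk RNA sequencing gave 2 tdTomato+ and 2 ZsGreen+ libraries, named as biological replicates. The labels give neither the age of the animals nor whether each library had its own mouse, so p-values measure only the spread between these libraries, which may be technical. Sham-operated mice were not analysed here.

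Ion channels let selected ions cross the membrane along their gradients. In endothelium, potassium efflux through calcium-activated and inwardly rectifying channels makes the membrane potential more negative, which is known to favour calcium entry through TRP channels and to pass on to the smooth muscle as relaxation. Voltage-gated calcium and sodium channels are best known from muscle, heart and nerve, where large pore subunits carry the current and smaller auxiliary subunits set their surface level and gating. Endothelial cells are usually described as having little voltage-gated calcium current, whereas smooth muscle contraction depends on it.

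Total counts were 17399497 and 18574737 in the tdTomato+ libraries and 17050673 and 18165494 in the ZsGreen+ libraries. Acta2, the recorded gene, stood at 303.9 and 527.5 CPM (read counts after scaling the libraries to one size) against 87.6 and 82.9 CPM, and was called higher (log2 ratio of tdTomato+ over ZsGreen+ 2.29, SE 0.29, edgeR adjusted p = 0.0432; 0.126 without tdTomato+ replicate 2 and 0.111 without ZsGreen+ replicate 2). All 8 endothelial markers examined were present, summing to 8258 and 7883 CPM in tdTomato+ and 10866 and 8995 CPM in ZsGreen+ cells. Of these markers 4 lay lower in both tdTomato+ libraries than in both ZsGreen+ libraries, 1 lay higher and none was called. Of 7 lymphatic markers 6 lay lower in both tdTomato+ libraries than in both ZsGreen+ libraries (all genes: 18.2%). So did 7 of 8 markers of aerocytes, the gas-exchange capillary cells. Higher in both tdTomato+ libraries were 4 of 6 venous, 6 of 8 fibroblast and 6 of 7 alveolar type 2 markers (all genes: 19.9%). Of 8 arterial markers 4 lay higher and 1 lower. In bulk libraries, fewer cells of a type and less RNA per cell cannot be told apart. Over the whole table edgeR called 40 of 13177 genes at an adjusted p under 0.05, 22 higher and 18 lower in tdTomato+ cells. With the deposited TPM (transcript abundance scaled by gene length) this split was 22 higher and 9 lower, on a scale where the median log2 ratio of all genes was 0.12 and not -0.01.

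Most channel genes were near or below the limit of detection. Of the 138 members, 66 had a count in every library, 17 reached 1 TPM in every library and 7 reached 10 TPM in every library. At the other end, 17 had no count in any library and 38 had at most 3 counts in each. The 52 members that passed the filter on low counts (edgeR's filterByExpr with a minimum count of 10) were tested, and the other 86 were not. The levels of different genes are given per length, as deposited TPM, and summed over all members came to 496.1 and 493.9 TPM in tdTomato+ cells and 541.7 and 591.4 TPM in ZsGreen+ cells.

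Scn3b, an auxiliary beta subunit of sodium channels, had the highest level of the family, at 132 and 87.8 TPM in tdTomato+ and 232 and 262 TPM in ZsGreen+ cells. Trpc4ap followed at 80.1 to 87.8 TPM; it shares the TRP prefix but encodes a TRPC4-associated adaptor and not a channel. The highest pore-forming subunit was Kcnq1, a slowly activating voltage-gated potassium channel, at 42.5 to 52.4 TPM, followed by Kcnh6, a potassium channel of the ether-a-go-go family, at 21.1 to 39.3 TPM. Next came Kcnk5, an acid-sensitive background potassium channel, Trpv4, a calcium-permeable channel opened by stretch and warmth, and Trpm4, a calcium-activated channel for monovalent cations. In the plot of TPM by gene, the groups did not overlap for Scn3b, Trpv4 and Kcnn4 among the 10 members shown with the highest mean, and overlapped for the other 7.

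**Figure D1:**
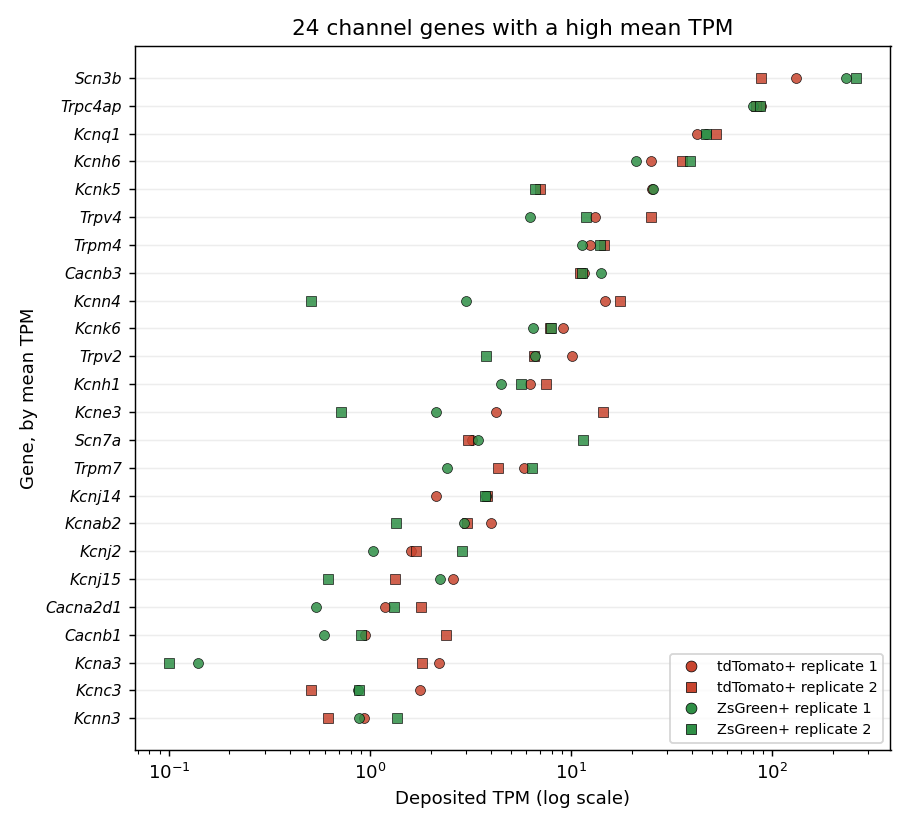
Deposited TPM (log axis) of 24 channel genes with a high mean, one point per library (red: tdTomato+, green: ZsGreen+, circle: replicate 1, square: replicate 2). Scn3b leads, with ZsGreen+ libraries at 232 and 262 TPM and tdTomato+ libraries at 132 and 87.8 TPM, and Kcnn4 and Kcna3 show the widest gaps between the groups.

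No channel gene passed the test between tdTomato+ and ZsGreen+ cells. edgeR called 0 of the 52 tested members at an adjusted p under 0.05, where 0.304% of all genes were called, and the lowest adjusted p among them was 0.114, that of Scn3b. At an unadjusted p under 0.05 there were 10 members (all genes: 8.77%), 6 of them higher (all genes: 5.62%) and 4 lower in tdTomato+ cells (all genes: 3.15%). Both tdTomato+ libraries lay above both ZsGreen+ libraries for 12 members (all genes: 19.9%) and below them for 8 (all genes: 18.2%). The median log2 ratio was 0.24 over the tested members and -0.01 over all genes, and 34 of 52 members had a value above 0 (all genes: 49.3%). DESeq2 called 3 members, Scn3b, Kcnn4 and Kcna3 (all genes: 2.5%), edgeR without a filter on low counts called Scn3b alone (all genes: 0.764%), and edgeR without ZsGreen+ replicate 1 called Scn3b, Kcnn4 and Scn7a (all genes: 2.21%). With the replicate number as a block edgeR called 8 members (all genes: 7.09%); the labels do not say that the numbers pair libraries.

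**Figure D2:**
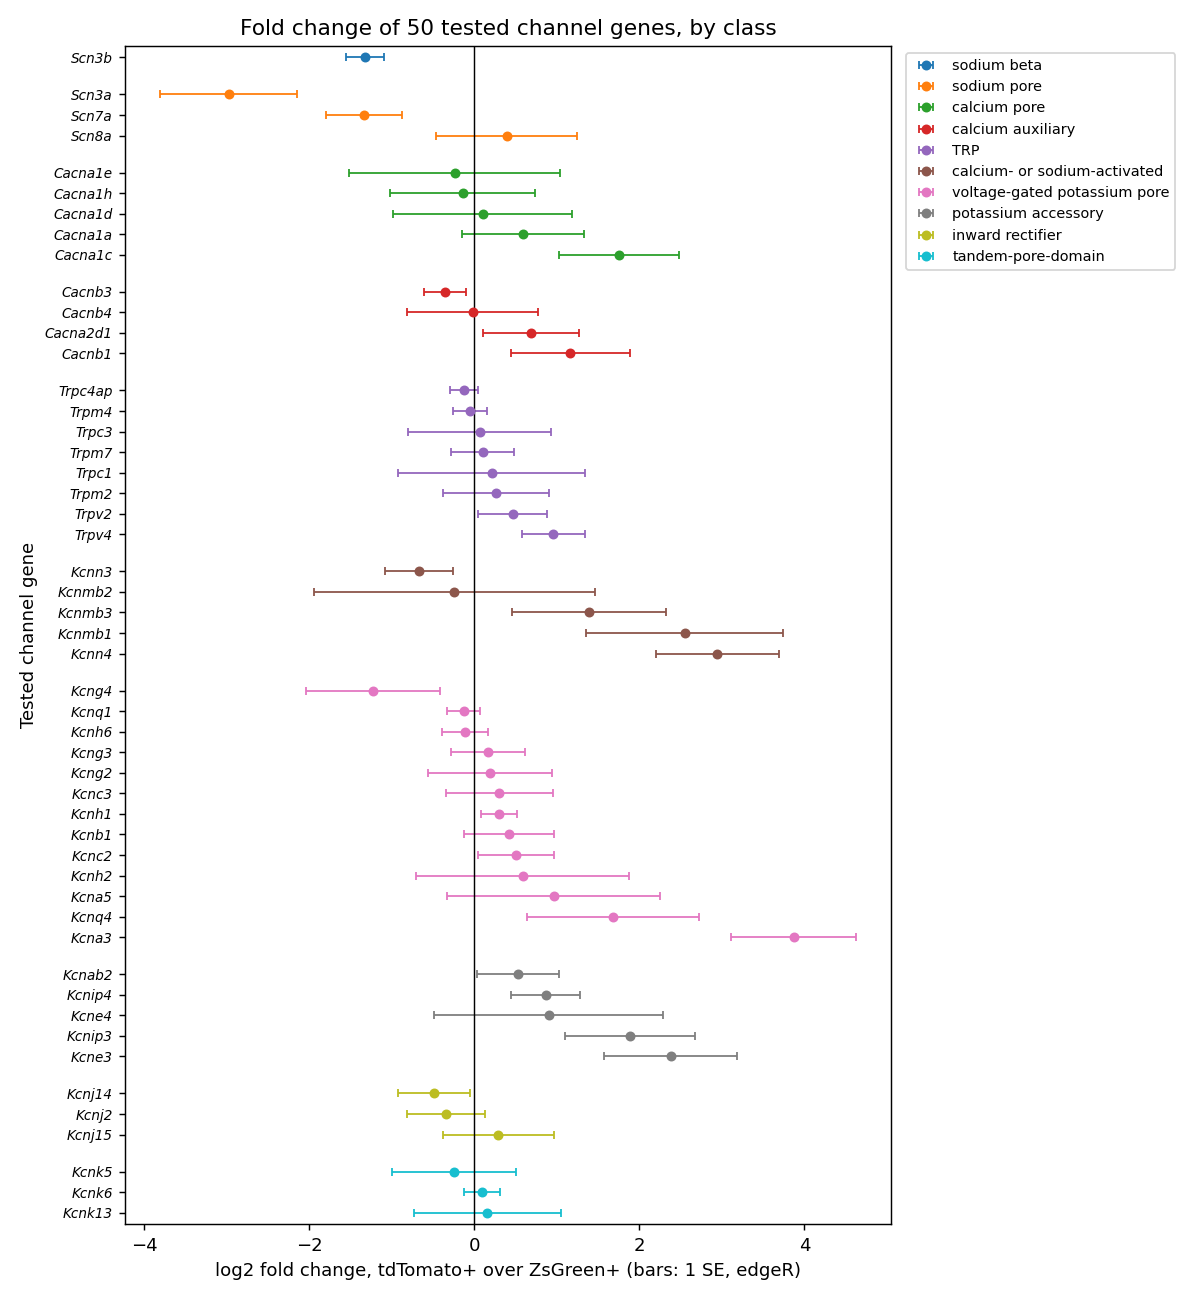
log2 ratio, tdTomato+ over ZsGreen+, with 1 standard error from edgeR, of 50 of the 52 tested channel genes in their classes. Values run from -2.97 (Scn3a) to 3.87 (Kcna3), the widest bars belong to genes of few counts, and no gene passed at an adjusted p under 0.05.

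Of the 8 members that lay lower in both tdTomato+ libraries, 4 were sodium channel genes, among them Scn3b, Scn3a and Scn7a, and none was called. Beta subunits bind the pore, adjust its gating and act as adhesion molecules. Scn3b had 314 and 218 CPM in tdTomato+ cells, against 682 and 648 CPM in ZsGreen+ cells. The ZsGreen+ libraries lay close together and both were over the higher tdTomato+ library by a wide margin, a mean of 665 ± 24.2 CPM against 266 ± 67.4 CPM (SD, n = 2). The log2 ratio was -1.32 (SE 0.23, edgeR adjusted p = 0.114). The adjusted p was 5.35e-06 with DESeq2, 0.0266 with edgeR without a filter on low counts and 0.0442 with edgeR without ZsGreen+ replicate 1, so that the call depended on the tool and the filter while the log2 ratio stayed between -1.61 and -1.06 on leaving out any 1 library. Its gene (identifier 235281) lies on chromosome 9 of the GRCm38 build, from 40269216 to 40291618.

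The sodium channel pore subunits were scarce beside their beta subunits. Summed over the 9 pore genes the level was 3.23 to 12.4 TPM per library, against 167 to 311.7 TPM for the 4 beta genes. Scn7a, a sodium-sensing member of the family, was the most abundant per length, at 3.09 to 11.5 TPM, and had 14.2 and 14.2 CPM in tdTomato+ and 18.6 and 53.0 CPM in ZsGreen+ cells. The groups did not overlap, but the gap rested on ZsGreen+ replicate 2: the log2 ratio was -1.33 (SE 0.46, edgeR adjusted p = 0.435) with all libraries, -0.39 without that library (adjusted p = 0.507) and -1.90 without ZsGreen+ replicate 1 (adjusted p = 0.00873). Scn3a, a pore known from developing neurons, had 6 and 3 counts in tdTomato+ and 43 and 22 counts in ZsGreen+ cells. Only the ZsGreen+ counts reached the filter's minimum count. Scn3a was thus tested through the group where it was higher, and its ratios and interval depend on that selection. Pooled over libraries it was 7.89-fold higher in ZsGreen+ cells, with an exact 95% interval of 3.91 to 18.0 that covers counting error only (log2 ratio -2.97, SE 0.83, edgeR adjusted p = 0.293).

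**Figure D3:**
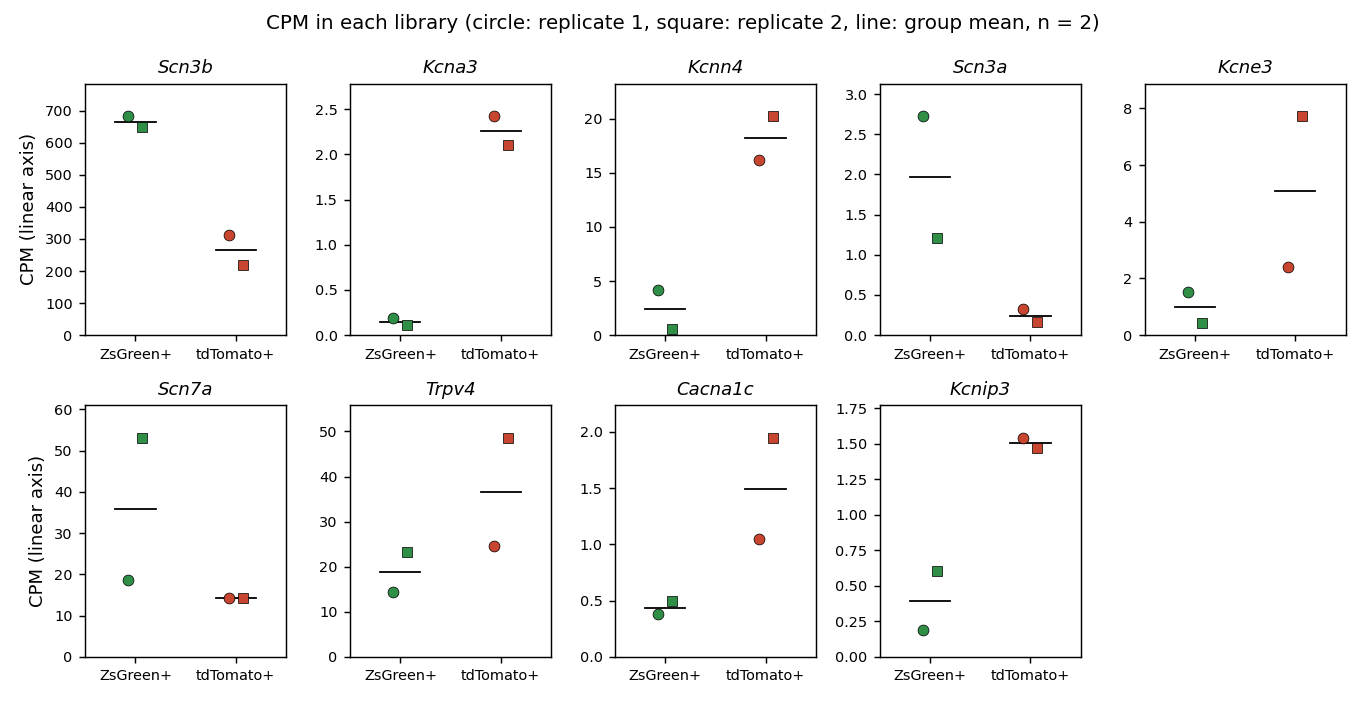
CPM per library (linear axes from 0) of 9 of the 10 channel genes with an unadjusted edgeR p under 0.05, with the group mean as a line. In each panel the 2 groups do not overlap; for Scn7a and Kcne3 a single library, at 53.0 CPM and 7.72 CPM, lies far from the other of its group.

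Markers of lymphatic and capillary endothelium were measured beside the sodium channel values. The 8 aerocyte markers summed to 598.4 and 540.0 CPM in tdTomato+ and 833.7 and 900.1 CPM in ZsGreen+ cells, and the 7 lymphatic markers to 713.3 and 1005 CPM against 941.7 and 1231 CPM. The lymphatic sums overlapped, and so did Lyve1 alone of the 7 markers, at 503 and 840 CPM against 407 and 593 CPM. Of the lymphatic markers 3 were called lower, as was 1 aerocyte marker (all genes, called in either direction: 0.304%). The 6 general capillary markers summed to 5224 and 5634 CPM against 6963 and 5326 CPM, overlapping. Most of each sum was Plvap, at 4022 and 4437 CPM against 5206 and 3351 CPM, so the sums mainly give its level. Of the general capillary markers 3 of 6 were lower without overlap (all genes: 18.2%) and none was called. No marker of these lists was at 0 in all libraries. Their part in the sodium channel values was not tested.

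Kcnn4 stood out among the calcium-activated potassium channels. It encodes the intermediate-conductance channel, which opens on a rise of cell calcium, together with the small-conductance channel Kcnn3 starts endothelium-dependent hyperpolarization, and is also known from lymphocytes, macrophages and activated fibroblasts. Kcnn4 had 16.2 and 20.2 CPM in tdTomato+ cells, against 4.18 and 0.603 CPM in ZsGreen+ cells. Both tdTomato+ libraries were several times over the higher ZsGreen+ library, while the ZsGreen+ libraries differed widely from each other. The log2 ratio was 2.94 (SE 0.74, edgeR adjusted p = 0.246). It was called by DESeq2 (adjusted p = 0.00193) and by edgeR without ZsGreen+ replicate 1, where it was 4.90 (adjusted p = 0.00704). Without ZsGreen+ replicate 2 it was 2.12 (adjusted p = 0.109).

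Kcnn3 did not share the direction of Kcnn4. It stood at 4.24 and 2.99 CPM in tdTomato+ and 4.94 and 6.52 CPM in ZsGreen+ cells, lower without overlap (log2 ratio -0.66, SE 0.41, edgeR adjusted p = 0.775). Per length, Kcnn4 was at 14.8 and 17.5 TPM against 0.93 and 0.62 TPM of Kcnn3 in tdTomato+ cells. In ZsGreen+ cells the pair stood at 3.02 and 0.51 TPM for Kcnn4 and 0.88 and 1.36 TPM for Kcnn3, so that Kcnn4 was the higher of the pair in both tdTomato+ libraries and in 1 of 2 ZsGreen+ libraries. The large-conductance channel of smooth muscle was not seen: Kcnma1, its pore, had no count in any library, which allows up to 0.158 to 0.19 CPM. Kcnmb1, its smooth muscle beta subunit, stood at 1.10 and 1.10 CPM against 0.38 and 0 CPM. Kcnmb3, a related beta subunit, was at 3.47 and 0.893 CPM against 0.316 and 1.31 CPM, with overlapping groups (log2 ratio 1.39, SE 0.93, edgeR adjusted p = 0.791), and its log2 ratio was 0.12 without tdTomato+ replicate 1 and 2.75 without ZsGreen+ replicate 2. The small-conductance channel Kcnn2 had no count either.

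Among voltage-gated potassium channels Kcna3 showed the highest log2 ratio of all tested members, from few counts. Kcna3, a delayed rectifier best known from T lymphocytes and macrophages, had 44 and 40 counts in tdTomato+ and 3 and 2 counts in ZsGreen+ cells, or 2.42 and 2.10 CPM against 0.19 and 0.11 CPM. Libraries within each group lay close together and the groups lay far apart. Only the tdTomato+ counts of Kcna3 reached the filter's minimum count, so it was tested through the group where it was higher. Its rank, ratios, interval and call depend on that selection. The pooled ratio was 15.4 (exact 95% interval 6.33 to 48.6, counting error only), and the log2 ratio was 3.87 (SE 0.76, edgeR adjusted p = 0.144). DESeq2 called it (adjusted p = 0.0199). Its gene (identifier 16491) lies on chromosome 3 of the GRCm38 build, from 107036162 to 107038129.

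The most abundant voltage-gated channels, Kcnq1 and Kcnh6, stood at like levels in both groups. Kcnq1 was at 67.5 and 87.7 CPM in tdTomato+ and 92.1 and 77.5 CPM in ZsGreen+ cells (log2 ratio -0.13, SE 0.20, edgeR adjusted p = 0.938). Its exons overlap those of the antisense transcript Kcnq1ot1, and without stated strandedness the reads of the pair cannot be told apart. Kcnh6 was at 53.0 and 78.4 CPM against 55.7 and 86.1 CPM (log2 ratio -0.11 ± 0.28 SE, edgeR adjusted p = 0.967), with replicate 2 the higher in both groups. Kcnh1, another ether-a-go-go channel, was at 26.8 and 33.8 CPM against 23.8 and 25.2 CPM, without overlap (log2 ratio 0.31, SE 0.22, edgeR adjusted p = 0.814). Kcnc2, a scarcer, fast delayed rectifier known from interneurons, stood at 3.47 and 3.10 CPM against 2.09 and 2.52 CPM, also without overlap (log2 ratio 0.51 ± 0.47 SE, edgeR adjusted p = 0.860). For Kcnq1 and Kcnh6 the sign of this small difference changed with the scaling, to 0.0068 and 0.051 on the log2(TPM + 1) scale, where the median of all genes was 0.12.

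All 5 tested accessory subunits of potassium channels had a log2 ratio above 0, and none passed the test. Kcne3, a single-span subunit that can hold Kcnq1 channels open, stood at 2.42 and 7.72 CPM in tdTomato+ and 1.52 and 0.438 CPM in ZsGreen+ cells. The groups did not overlap, and tdTomato+ replicate 2 was far above the rest: the log2 ratio was 2.38 (SE 0.81, edgeR adjusted p = 0.434) and 1.34 without that library. Exons of Kcne3 overlap an antisense gene, Gm34821. Kcnip4, a calcium-binding protein of A-type potassium channels, stood at 5.89 and 4.52 CPM against 2.91 and 2.79 CPM (log2 ratio 0.87 ± 0.41 SE, edgeR adjusted p = 0.638), and the related Kcnip3, also known as a calcium-dependent transcriptional repressor, at 1.54 and 1.47 CPM against 0.19 and 0.603 CPM (log2 ratio 1.89 ± 0.78 SE, edgeR adjusted p = 0.560). Kcnab2, a cytoplasmic beta subunit with an aldo-keto reductase fold, overlapped between groups at 8.47 and 6.67 CPM against 7.53 and 2.96 CPM (log2 ratio 0.53 ± 0.49 SE, edgeR adjusted p = 0.863).

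Leukocyte and fibroblast markers were measured beside Kcnn4, Kcna3 and Kcne3. The 7 T and NK cell markers summed to 8.80 and 4.46 CPM in tdTomato+ and 7.28 and 2.79 CPM in ZsGreen+ cells, and none of the 3 tested lay apart between groups. The 4 B cell markers summed to 12.4 and 4.83 CPM against 12.3 and 1.31 CPM, with 1 of 4 apart, and both sums overlapped between the groups. The 7 macrophage markers summed to 4324 and 2229 CPM against 2476 and 557 CPM, also overlapping. Most of each sum was Lyz2, at 3953 and 1969 CPM against 2269 and 469 CPM, so the sums mainly give its level. All 7 macrophage markers were above 0 in log2 ratio and 2 of 7 were higher without overlap (all genes: 19.9%). The 6 neutrophil markers summed to 42.6 and 45.6 CPM against 31.2 and 15.9 CPM. These neutrophil sums did not overlap, and 4 of the 5 tested markers were higher without overlap, with none called. The 8 fibroblast markers summed to 237.3 and 435.3 CPM against 95.2 and 117.9 CPM, with 6 of 8 without overlap. No marker of these lists was at 0 in all libraries, and the part of such cells in the potassium channel values was not tested.

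Of the 8 tested members with the TRP prefix, Trpv4 alone lay higher in both tdTomato+ libraries (all genes: 19.9%). Trpv4 is a mechanically and thermally gated calcium entry channel of lung endothelium, known for its role in capillary permeability. It stood at 24.5 and 48.5 CPM in tdTomato+ and 14.3 and 23.3 CPM in ZsGreen+ cells. The lower tdTomato+ library was just above the higher ZsGreen+ library, and replicate 2 was the higher in both groups. The log2 ratio was 0.96 (SE 0.38, edgeR adjusted p = 0.538), and 0.40 without tdTomato+ replicate 2. Its gene (identifier 63873) lies on chromosome 5 of the GRCm38 build, from 114622152 to 114658435. Trpv2, a calcium-permeable channel known from macrophages and muscle, stood at 16.2 and 10.8 CPM against 13.2 and 6.35 CPM (log2 ratio 0.47 ± 0.42 SE, edgeR adjusted p = 0.856). The adaptor Trpc4ap stood at 162.4 and 161.8 CPM against 183.3 and 169.3 CPM (log2 ratio -0.12 ± 0.17 SE, edgeR adjusted p = 0.917), a small difference whose sign turned on the log2(TPM + 1) scale, to 0.032. Trpm4 was at 30.9 and 37.6 CPM against 34.7 and 36.3 CPM, overlapping between groups. Trpc4, a receptor-operated channel named after its value was seen, had no count in any library.

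Voltage-gated calcium channel pores were almost unread, with a summed level of 0.86 to 2.17 TPM per library over 10 genes. Cacna1c, the L-type pore that drives smooth muscle and heart contraction, had 19 and 37 counts in tdTomato+ and 6 and 9 counts in ZsGreen+ cells. That was 1.05 and 1.94 CPM against 0.38 and 0.493 CPM, without overlap (log2 ratio 1.76, SE 0.73, edgeR adjusted p = 0.558). Only its tdTomato+ counts reached the filter's minimum of 10. The smooth muscle and pericyte markers, 10 genes, summed to 1366 and 1835 CPM in tdTomato+ and 1329 and 927.7 CPM in ZsGreen+ cells. Nearly all of each sum was Tagln, at 1336 and 1787 CPM against 1300 and 893.8 CPM. The highest value of any other marker in this list was 19.06 CPM, that of Des in tdTomato+ replicate 2. Of the 10 markers 4 lay higher without overlap (all genes: 19.9%), none was at 0 and none was called. Their part in the Cacna1c value was not tested. Cacna1a, the P/Q-type pore of nerve terminals, stood at 2.09 and 2.36 CPM against 0.57 and 2.36 CPM (log2 ratio 0.59 ± 0.74 SE, edgeR adjusted p = 0.903). Cacna1h, a T-type pore, and Cacna1e, the R-type pore, were split by replicate number and not by group: Cacna1h was at 3.85 and 5.06 CPM in the libraries numbered 1 and at 1.47 and 0.822 CPM in those numbered 2, and Cacna1e at 3.58 and 3.99 CPM against 0.21 and 0.493 CPM. Their log2 ratios were -0.14 (SE 0.88) and -0.24 (SE 1.27), with edgeR adjusted p = 0.986 and 0.982, and that of Cacna1h was 0.27 with limma-voom.

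The auxiliary subunits of calcium channels were read at higher levels than the pores, 14.3 to 16.96 TPM per library in sum. Most of that was Cacnb3, a cytoplasmic beta subunit, at 11.03 to 14.03 TPM. It stood at 17.6 and 17.3 CPM in tdTomato+ and 26.2 and 18.2 CPM in ZsGreen+ cells, lower without overlap (log2 ratio -0.35, SE 0.25, edgeR adjusted p = 0.823). Cacnb1, the beta subunit of skeletal muscle, was at 1.10 and 3.36 CPM against 0.886 and 1.10 CPM (log2 ratio 1.16 ± 0.72 SE, edgeR adjusted p = 0.773). Cacna2d1, the alpha2delta subunit that binds gabapentin, overlapped at 3.74 and 5.20 CPM against 1.46 and 4.05 CPM (log2 ratio 0.69 ± 0.58 SE, edgeR adjusted p = 0.844).

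Inward rectifiers and background channels, which set the resting potential, did not lie apart between the groups for any of the 6 tested. Over all genes 19.9% lay higher and 18.2% lower without overlap. Kcnj2, the classical inward rectifier that endothelial cells use to sense potassium and flow, stood at 5.17 and 5.72 CPM in tdTomato+ and 4.11 and 9.70 CPM in ZsGreen+ cells (log2 ratio -0.34, SE 0.47, edgeR adjusted p = 0.917). Kcnj14, of the same subfamily, was at 3.19 and 6.04 CPM against 7.02 and 5.92 CPM (log2 ratio -0.49, SE 0.43), and Kcnj15, known from kidney and other epithelia, at 5.56 and 3.52 CPM against 5.95 and 1.48 CPM (log2 ratio 0.29, SE 0.67). The inward rectifiers were steady in sum, at 6.85 to 7.37 TPM in the 4 libraries. Kcnk6, a tandem-pore-domain channel, was at 21.8 and 19.8 CPM against 19.1 and 19.9 CPM (log2 ratio 0.09 ± 0.21 SE, edgeR adjusted p = 0.959), among the closest of all tested members.

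Kcnk5 varied between libraries more than between groups. It stood at 49.2 and 61.8 CPM in the tdTomato+ and ZsGreen+ libraries numbered 1 and at 14.3 and 13.5 CPM in those numbered 2. The libraries of either group thus differed widely from each other while same-numbered libraries of different groups lay close. The log2 ratio was -0.24 (SE 0.75, edgeR adjusted p = 0.972), and 0.027 on the log2(TPM + 1) scale. Kcnk13, a related halothane-inhibited channel known from microglia, was also higher in both libraries numbered 1, at 1.87 and 2.15 CPM against 0.945 and 0.383 CPM (log2 ratio 0.16, SE 0.89). What the replicate numbers share is not given in the labels.

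**Figure D4:**
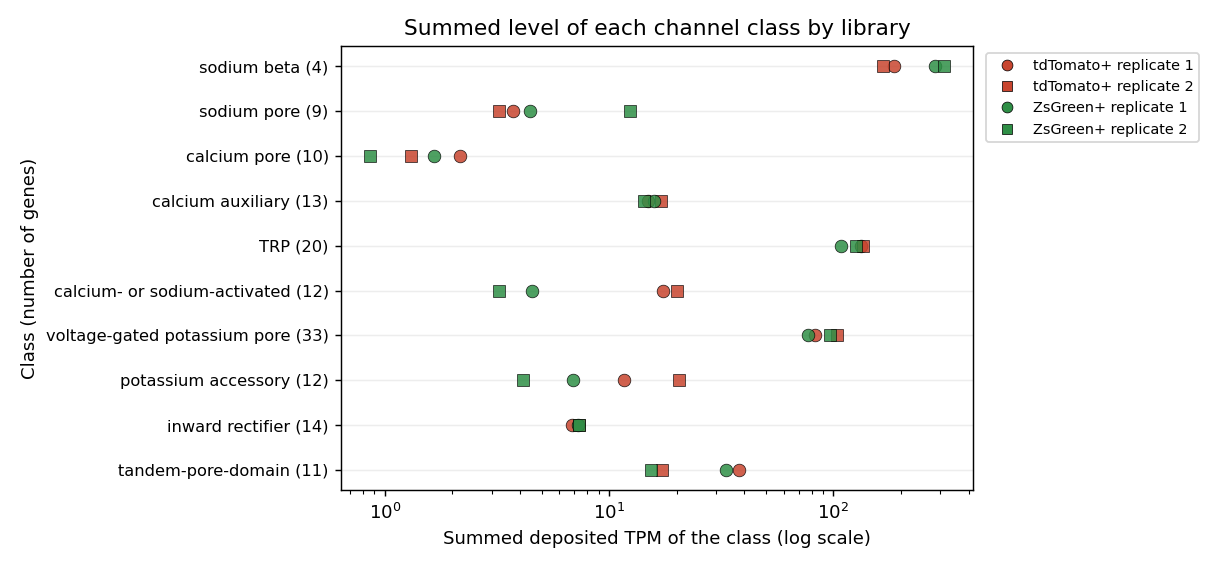
Summed deposited TPM (log axis) of each of the 10 channel classes in the 4 libraries. Calcium- or sodium-activated and accessory potassium channel genes are higher in both tdTomato+ libraries (17.3 and 20.2 against 4.52 and 3.23 TPM, and 11.7 and 20.5 against 6.93 and 4.12 TPM), TRP genes are slightly higher there, both sodium channel classes are higher in both ZsGreen+ libraries, and tandem-pore-domain genes are split by replicate number.

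Summed by class, the potassium channels gated by calcium or sodium came to 17.3 and 20.2 TPM in tdTomato+ and 4.52 and 3.23 TPM in ZsGreen+ cells. Nearly all of the difference was Kcnn4. Accessory potassium channel genes came to 11.7 and 20.5 TPM against 6.93 and 4.12 TPM, in which Kcne3 was the largest term in both tdTomato+ libraries. Sodium channel beta genes came to 186.1 and 167 TPM against 282.3 and 311.7 TPM, through Scn3b. Genes with the TRP prefix came to 132 and 136 TPM against 108 and 126 TPM. The sums of voltage-gated potassium pores, at 77.1 to 104 TPM, of calcium channel pores and auxiliary subunits, of inward rectifiers and of tandem-pore-domain channels overlapped between the groups.

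More of the scarce members had a read in the tdTomato+ libraries. In the tdTomato+ libraries 108 and 101 members had a count, and in the ZsGreen+ libraries 88 and 79. Over all genes the order of the groups was the same, with 15747 and 15560 genes with a count against 14969 and 15054. There were 8 members with a count in both tdTomato+ libraries and none in ZsGreen+ cells (all genes: 1.77%), and 0 with the opposite pattern (all genes: 0.391%). These 8, named after their values were seen, were Kcnd1, Kcnt2, Kcnk1, Cacna1s, Kcna7, Kcnk4, Kcne1 and Scn2a, none above 0.893 CPM in any library. Members with no count in any library included the cardiac and neuronal inward rectifiers Kcnj3 and Kcnj9, the ATP-sensitive channel pore Kcnj11, the shaker-type channels Kcna1, Kcna2 and Kcna4, and the calcium-selective epithelial channel Trpv5. These are counts of reads at this depth and do not show that the genes are silent.

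Outside the channel families, 1 of 44 tested genes for calcium, sodium and potassium transport passed the test (all genes: 0.304%). It was Fxyd6, a regulator of the sodium pump, which was lower in tdTomato+ cells at 6.77 and 10.6 CPM against 40.0 and 51.0 CPM (log2 ratio -2.39 ± 0.29 SE, edgeR adjusted p = 0.0407). That call ended without tdTomato+ replicate 1 (adjusted p = 0.108), tdTomato+ replicate 2 (0.126) or ZsGreen+ replicate 2 (0.0701), and on the log2(TPM + 1) scale (0.0715). The sodium pump itself was not called in any subunit.

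Among calcium handling genes the lowest p-values belonged to the plasma membrane pumps Atp2b2 and Atp2b4, which expel calcium. The most abundant pump of this family, Atp2b1, overlapped between groups (log2 ratio 0.07, SE 0.24, edgeR adjusted p = 0.973). It stood at 127.6 and 119.7 CPM in tdTomato+ and 91.2 and 143.6 CPM in ZsGreen+ cells. Atp2b4 stood at 15.7 and 16.9 CPM in tdTomato+ and 5.505 and 7.39 CPM in ZsGreen+ cells (log2 ratio 1.33, SE 0.30, edgeR adjusted p = 0.191). Atp2b2, the pump of hair cells and neurons, had 31 and 59 counts against 0 and 2, a pooled ratio of 41.2 with an exact 95% interval of 11.1 to 345.2 that covers counting error only (edgeR adjusted p = 0.155). Only the tdTomato+ counts of Atp2b2 reached the filter's minimum count. Atp2b2 was thus tested through the group where it was higher, and its ratios, interval and calls depend on that selection. Its log2 ratio, 5.21 with all libraries, ran from 4.37 to 8.41 on leaving out 1 library. DESeq2 called both (adjusted p = 0.0163 and 0.0106). Itpr1, a calcium release channel of the endoplasmic reticulum, stood at 48.6 and 39.3 CPM against 23.3 and 25.7 CPM (log2 ratio 0.84 ± 0.21 SE, edgeR adjusted p = 0.236). Tpcn1, an endolysosomal channel, was lower without overlap at 56.7 and 63.1 CPM against 89.5 and 86.2 CPM (log2 ratio -0.55 ± 0.17 SE, edgeR adjusted p = 0.364), as was the ATP-gated channel P2rx4 at 49.0 and 45.9 CPM against 57.3 and 67.5 CPM (log2 ratio -0.39 ± 0.18 SE, edgeR adjusted p = 0.628). Hvcn1, the voltage-gated proton channel of phagocytes and B cells, stood at 44.9 and 23.2 CPM against 21.1 and 5.15 CPM (log2 ratio 1.38 ± 0.62 SE, edgeR adjusted p = 0.604), with its highest value in tdTomato+ replicate 1 and its lowest in ZsGreen+ replicate 2, as the summed macrophage markers given above; their part in the Hvcn1 value was not tested. Without ZsGreen+ replicate 1 the log2 ratio of Hvcn1 was 2.73 and was called (edgeR adjusted p = 0.0320), and without ZsGreen+ replicate 2 it was 0.69.

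**Figure D5:**
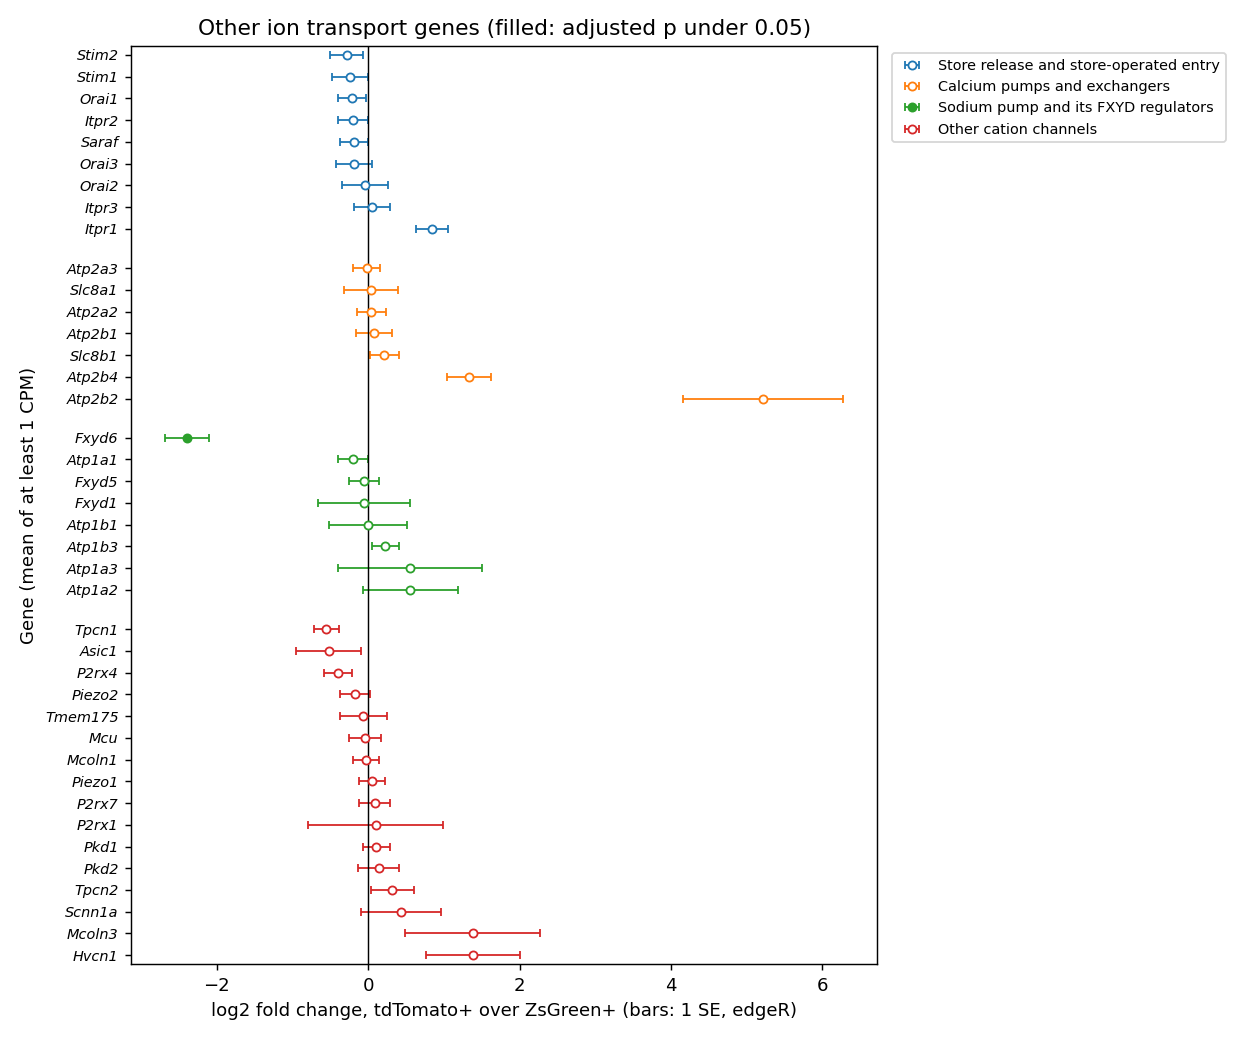
log2 ratio, tdTomato+ over ZsGreen+, with 1 standard error from edgeR, of the other ion transport genes whose mean reached 1 CPM, by group. Fxyd6, at -2.39, is the one filled point (adjusted p under 0.05); Atp2b2, Atp2b4 and Itpr1 lie to the right at 5.21, 1.33 and 0.84.

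The median log2 ratio of those 44 genes was 0.04, with 23 above and 21 below 0. It was -0.19 for the 9 tested genes of store release and store-operated entry, 0.07 for 7 calcium pumps and exchangers, -0.0040 for 9 sodium pump genes and 0.08 for 19 other cation channels. Store-operated entry through Orai and Stim proteins, the main calcium entry path of non-excitable cells, had no member called; in the list with the release channels, 2 of 9 genes were lower without overlap (all genes: 18.2%) and 1, Itpr1, was higher (all genes: 19.9%).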

How the data were processed

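Per the labels' protocols, RNeasy Micro columns gave the RNA, a Discover-sc kit amplified it over the whole transcriptome, and TruePrep reagents made libraries for MGI sequencing. Amplification of little RNA can add spread, and no molecular identifiers are named. The submitters' processing notes name RSEM 1.3.1, DESeq2 1.4.5 and the build GRCm38. Whether counting used strand is not stated in these sources. The authors deposited estimated counts (not whole for 16.2% to 17.9% of values, rounded here for tests) and TPM for 17915 coding genes; 8 further columns of per-sample values were not used.

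edgeR 4.0.16 under R 4.3.3 was run on the rounded counts with TMM factors (0.9273 to 1.045), filterByExpr (minimum count 10) and a two-sided quasi-likelihood F-test, with Benjamini-Hochberg adjustment over 13177 genes; the common biological coefficient of variation was 26.1%. CPM used TMM-scaled library sizes, and each SE is the size of the log2 ratio divided by the square root of F. With 2 against 2 libraries an exact permutation p cannot go below 0.333, so none is given. Exons were compared in GENCODE vM21 (15 of 52 tested members overlap another gene). Besides Kcnq1 and Kcne3 these include Trpc4ap, Cacna1h, Cacna1a, Cacnb1, Kcnip4, Kcnj15 and Kcnab2, whose values carry the same limit. Gene spans are those shared by the table and RefSeq GRCm38. The fits were tested on simulated data. Alternatives were DESeq2 1.42.0, limma-voom (limma 3.58.1), RLE or upper quartile factors, no filter, a minimum count of 50, leaving out each library, a replicate block, and limma with trend on log2 of TPM plus 1 or 0.1, over genes at 1 TPM in 2 libraries or, with 1, over all genes.

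Members, classes, marker lists and other transport genes (70 listed) were chosen with earlier results of these data known. Named in each class are the 3 genes with the lowest p among those whose mean reached 1 CPM and the 2 with the highest TPM, then of the other transport genes the called one and 6 with the lowest p. Trpm4, Cacna1c, Kcnip3, Kcnmb1, Atp2b1, single markers and the members with no or few counts were named after their values were seen. The rule excepts 2 symbols that match the patterns; these, and single values of 2 members that the totals include, are not reported here.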

Additional observations from a re-analysis of the deposited data

How the results depend on the processing

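Against 40 calls over all genes and 0 among the channel genes, DESeq2 gave 330 and 3, edgeR on unfiltered genes 128 and 1, and leaving out 1 library 4 to 304 and 0 to 3 (in these fits the lone library is assumed to vary like the other group). On the log2(TPM + 0.1) scale 22 genes were called, and on the log2(TPM + 1) scale without a filter 0, with no channel gene on either. The median log2 ratio of the tested channel genes, 0.24, was 0.53 over the 121 tested without a filter. With a minimum count of 50 it was 0.12 over 27 channel genes, of which 14 were above 0. On the log2(TPM + 1) scale without a filter it was 0.047, where the median of all genes was 0.097. The causes of these shifts were not tested.

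With a replicate block 934 genes and 8 channel genes were called, among them Scn3b, Kcnn4, Kcna3, Kcne3, Scn3a, Scn7a and Trpv4. Same-numbered libraries deviated together (Pearson's r = 0.455 across all tested genes, which are not independent replicates), but with 2 pairs and no shared origin in the labels the numbers are not taken to pair the libraries.

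Of 403 alternative values of 31 channel genes, 358 kept direction and side of the threshold, 14 passed it and 31, in 10 genes, changed sign. On leaving out 1 library the log2 ratio ran from -0.31 to 0.046 for Kcnq1, -0.40 to 0.24 for Kcnh6, -0.83 to 0.40 for Kcnj2, -0.39 to 1.62 for Kcnj15, -1.39 to 1.24 for Kcnk5, -0.61 to 1.86 for Kcnk13, -0.079 to 1.95 for Cacna1a, -3.37 to 1.93 for Cacna1e and -0.99 to 1.69 for Cacna1h. Without a change of sign it ran from 0.0042 to 1.36 for Kcnab2, 0.030 to 1.09 for Trpv2, 0.14 to 1.61 for Cacna2d1, 0.17 to 1.75 for Cacnb1, 1.31 to 2.94 for Kcnip3, -0.99 to -0.10 for Kcnj14 and -0.59 to -0.060 for Cacnb3. Cacna1h was 0.27 with limma-voom, 0.12 with the block and 0.047 on the log2(TPM + 1) scale without a filter. On the log2(TPM + 1) scale, with and without a filter, Kcnq1 was 0.0068, Kcnh6 0.051, Kcnk5 0.027 and Trpc4ap 0.032, and on the log2(TPM + 0.1) scale 0.0068, 0.054, 0.031 and 0.032. Of 109 alternative values of the 8 other genes, 9 no longer passed the threshold, 7 passed it and none changed sign; with the block Atp2b2, Atp2b4, Itpr1 and Hvcn1 were called (adjusted p = 1.29e-05, 0.000605, 0.00818 and 1.83e-07). At these depths a member under 3 counts per library (0.158 to 0.19 CPM) cannot be compared.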
